A study of Mus musculus with 30 samples.

Results

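The Hedgehog pathway was followed in the colon of C57BL/6J mice through 9 genes that were chosen by name: the ligands Ihh and Shh, the receptor Ptch1, the inhibitor Hhip, the signal transducer Smo, the transcription factors Gli1, Gli2 and Gli3, and the stromal transcription factor Foxf1. These are 9 of the 46078 genes counted in 30 libraries, 1 per mouse. The rule that defines them is their names, without a threshold on a measured value. The libraries fall into 5 groups of 6 mice. CD females and CD males were given a control diet (CD, 10% of energy from fat) and vehicle, HFD females and HFD males a high fat diet (HFD, 60% of energy from fat) and vehicle, and HFD+E2 males the high fat diet and estradiol (E2, 0.5 mg per kg body weight). All mice began their diet at an age of 5 to 6 weeks, were fed for 13 weeks and had 9 intraperitoneal injections of vehicle or E2 during the last 3 weeks. The females kept their ovaries. RNA came from frozen colon. For RNA isolation the study's methods name distal tissue and the epithelial layer, and for the sequencing colon tissue. Genes of epithelium, stroma and muscle were read together.

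Hedgehog ligands are secreted proteins. In the gut they are made by the epithelium and received by the mesenchyme beneath it, where the ligand binds Ptch1 and thereby relieves the block on Smo, and Smo changes the balance of activating and repressing Gli proteins. Ptch1, Hhip and Gli1 are themselves switched on by the pathway in most tissues, and Foxf1 is a target in the gut mesenchyme. In the intestine the pathway is known for its part in the patterning of villi and crypts and in the formation of smooth muscle.

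Promoters from the RefSeq table for GRCm38.p6 were matched for 6 of the 9 genes, namely Ihh, Ptch1, Hhip, Smo, Gli2 and Gli3. The bases just before the start site are shown for Ihh, the ligand gene with counts in every library, and for Gli2 and Gli3, which differed between the sexes on CD. They are read 5′ to 3′ in the direction of the gene, with CpG dinucleotides in capitals. The Ihh stretch is chr1:74951673-74951922 (minus strand), that of Gli2 is chr1:119053620-119053869 (minus strand) and that of Gli3 is chr13:15463473-15463722 (plus strand).
Ihh: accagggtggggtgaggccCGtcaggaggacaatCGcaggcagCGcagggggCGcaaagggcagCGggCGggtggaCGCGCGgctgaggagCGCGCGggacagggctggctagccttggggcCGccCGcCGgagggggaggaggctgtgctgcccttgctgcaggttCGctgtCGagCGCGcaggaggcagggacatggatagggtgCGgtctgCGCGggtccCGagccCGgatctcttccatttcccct
Gli2: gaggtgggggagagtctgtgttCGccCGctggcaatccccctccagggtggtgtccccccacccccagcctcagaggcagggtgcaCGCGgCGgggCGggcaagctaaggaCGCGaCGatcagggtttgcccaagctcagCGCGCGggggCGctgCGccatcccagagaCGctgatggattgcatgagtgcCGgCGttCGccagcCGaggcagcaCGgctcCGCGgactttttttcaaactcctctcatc
Gli3: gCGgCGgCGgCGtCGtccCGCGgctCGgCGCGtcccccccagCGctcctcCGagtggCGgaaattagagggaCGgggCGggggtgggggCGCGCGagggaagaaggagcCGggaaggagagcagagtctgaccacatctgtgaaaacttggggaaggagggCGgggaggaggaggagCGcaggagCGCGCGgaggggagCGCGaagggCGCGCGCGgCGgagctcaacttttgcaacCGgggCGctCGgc
No base of these 3 stretches was marked as part of an annotated exon. In the gene annotation of the expression data, however, Gm6556 (chr13:15440302-15463736, opposite strand) spans the whole Gli3 stretch. Where the exons of Gm6556 lie is not given here. The annotated Gli3 gene begins upstream of its stretch, at another start site. The capitals mark 24 CpG dinucleotides for Ihh, 22 for Gli2 and 34 for Gli3. Over windows from 250 bases before to 50 bases after the start, the 6 matched genes held from 17 (Smo) to 47 (Ptch1) CpG dinucleotides, whereas the median of all 32851 promoters was 7 and the upper quartile 20. The annotated Ptch1 gene (chr13:63508328-63573598, minus strand) also begins upstream of its window (chr13:63565686-63565985), at another start site. The Gli binding motif GACCACCCA, searched in these windows on both strands (TGGGTGGTC on the other), was found in 0 of the 6 genes and in 83 (0.253%) of all promoters. With a motif this rare, its absence from 6 windows does not bear on whether Gli proteins act on these genes.

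The counts on genes ranged from 8667177 to 17243712 per library. Markers of the colonic epithelium (Epcam, 6887 to 15699 counts) and of smooth muscle (Myh11, 22500 to 94750 counts) were present in every library. Genes of stratified squamous epithelium, such as Krt5 and Krt13, which the columnar lining of the colon lacks, stood apart in 6 libraries: replicates 1, 3, 4 and 5 of the HFD females and replicates 2 and 4 of the HFD males. The mean log2 CPM (counts scaled to library size) of 10 such genes was 2.93 to 6.79 in these libraries and -1.86 to 0.45 in the other 24. Comparisons with HFD groups are therefore also given without these 6 libraries. The groups of the CD comparison hold none of them, though replicates 3 and 6 of the CD males, at 0.45 and -0.11, lay above the other CD males (-1.81 to -1.66).

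Ihh was the most abundant of the 9 genes per length, and Shh lay under the detection floor. On the TPM scale, which is scaled to gene length, Ihh averaged 13.8 ± 2.84 (SD, n = 30), Ptch1 9.77 ± 1.69, Smo 8.22 ± 1.32, Foxf1 5.69 ± 1.18, Hhip 5.63 ± 1.41, Gli3 2.74 ± 1.06, Gli1 0.948 ± 0.348 and Gli2 0.826 ± 0.262. Ihh was above Ptch1 in 26 of 30 libraries, Ptch1 above Smo in 25, Smo above Foxf1 in 29, Hhip above Gli3 in 29 and Gli3 above Gli1 in 30. Foxf1 and Hhip could not be ordered, since Foxf1 was higher in 16 of 30 libraries, and Gli1 was above Gli2 in only 18. Of the 8 genes other than Shh, the 3 Gli genes had the largest spread in TPM, with coefficients of variation of 31.8% for Gli2, 36.7% for Gli1 and 38.6% for Gli3. The smallest spread was that of Smo, at 16.1%. On the CPM scale that of Gli3 was 17.7%, near those of Hhip (17.5%) and Foxf1 (16.5%), so that the large spread of Gli3 was found in TPM but not in the counts.

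**Figure D1:**
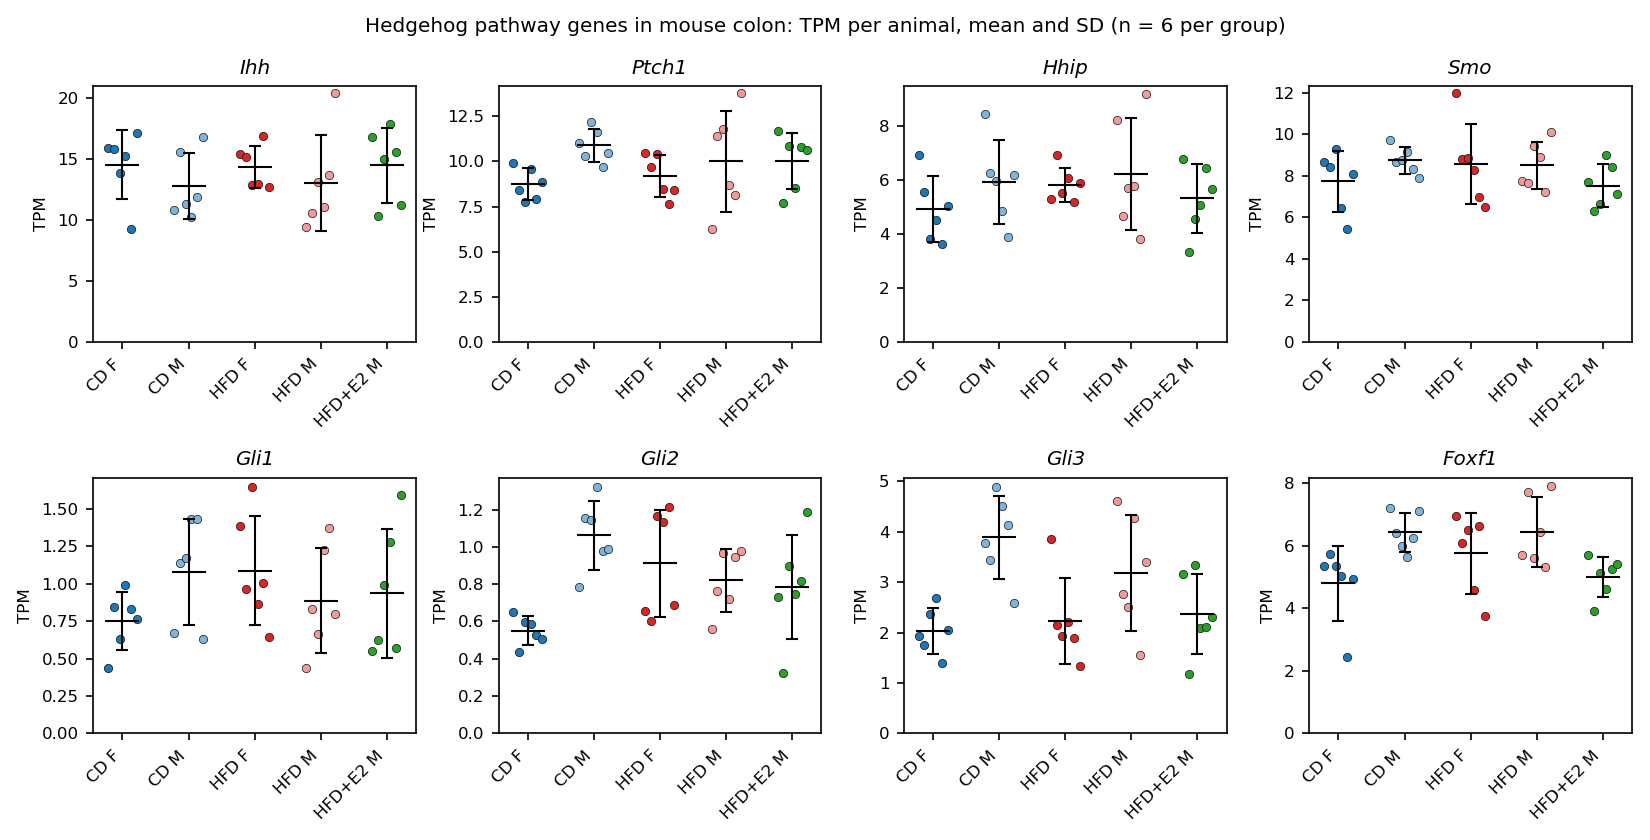
TPM of the 8 detected Hedgehog genes in each mouse (points), with group means (horizontal lines) and SD (bars), n = 6 per group. Each panel has its own axis from 0. CD females (dark blue) lie low for Gli2 and Gli3, at 0.438 to 0.650 and 1.39 to 2.69 TPM, against 0.782 to 1.32 and 2.58 to 4.89 TPM in CD males (light blue).

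Shh (ENSMUSG00000002633, chr5:28456815-28467256) had 4 counts over all 30 libraries together and 0 counts in 27 of them. Its highest library, among the HFD+E2 males, held 2 counts. A count of 0 allows up to 3 counts, which is 0.174 to 0.346 CPM depending on the library. This floor covers counting error only. In the 6 libraries with squamous epithelium RNA, Shh was at 0 CPM. Ihh (ENSMUSG00000006538, chr1:74945315-74951672) held from 167 to 521 counts, at least 55.7 times the floor of Shh in each library. Shh was therefore left out by the filter on low counts in every comparison, and 8 of the 9 genes were tested.

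No difference of Ihh between the groups was called. In CD females it ranged from 9.23 to 17.1 TPM with a median of 15.6, and in CD males from 10.2 to 16.8 with a median of 11.6. In HFD females it ranged from 12.7 to 16.9 (median 14.1), in HFD males from 9.41 to 20.4 (median 12.1) and in HFD+E2 males from 10.3 to 17.9 (median 15.3). All 5 groups overlapped. None of the 5 comparisons of 2 groups passed a threshold for Ihh, and the log2 differences lay between -0.13 (HFD against CD in females) and 0.29 (E2 against vehicle in HFD males). The 95% intervals reached up to 0.60 for females against males on CD and up to 0.67 for E2. Differences of that size are therefore not excluded.

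The question of the first comparison was how the sexes differ on the control diet. Gli2 and Gli3, the transcription factors that respond first to the signal in the mesenchyme, were lower in CD females than in CD males, whereas Ihh was not. A difference was called at the threshold of the study (unadjusted p under 0.05 and a log2 difference over 0.4 in either direction) and, separately, at a Benjamini-Hochberg adjusted p under 0.05 over all genes tested, both with edgeR's quasi-likelihood test. Of the 8 genes, 2 were lower in females and 0 higher at either threshold. Of all 14922 genes tested, 9.15% passed the first threshold (6.21% lower in females) and 2.92% the second (2.14% lower in females). The median log2 difference of the 8 genes was -0.28, against 0.01 for all genes, and 7 of the 8 had a negative value.

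Gli3 (ENSMUSG00000021318, chr13:15463235-15730026), which acts mainly as a repressor in the absence of ligand, ranged from 1.39 to 2.69 TPM (median 1.98) in CD females and from 2.58 to 4.89 TPM (median 3.96) in CD males. In CPM every CD female (10.1 to 11.4) lay below every CD male (13.7 to 20.3). Among all genes, 1.45% were lower in females without overlap. The log2 difference of Gli3 was -0.57 (SE 0.11, 95% interval -0.81 to -0.33, edgeR adjusted p = 0.0127). The exact permutation test, two-sided on log2 CPM, gave p = 0.00216, the smallest it can give for 6 mice against 6. The adjusted p of Gli3 stayed between 0.00921 and 0.0344 when each library was left out in turn.

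Gli2 (ENSMUSG00000048402, chr1:118834132-119053619), the main activator downstream of Smo, ranged from 0.438 to 0.650 TPM (median 0.556) in CD females and from 0.782 to 1.32 TPM (median 1.07) in CD males. In TPM the groups of Gli2 did not overlap. In CPM they did, since the lowest CD male, replicate 1, had 4.15 and the CD females reached 4.36. The log2 difference of Gli2 was -0.70 (SE 0.17, 95% interval -1.06 to -0.34, edgeR adjusted p = 0.0377, exact permutation test p = 0.00649). The adjusted call of Gli2 rested on few counts, 35 to 89 per library, and was lost in 9 of 12 fits without 1 library, those without any of replicates 2 to 6 of the CD females or 2 to 5 of the CD males (adjusted p up to 0.0913). Its log2 difference stayed between -0.80 and -0.62 in the 12 fits.

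The other genes did not pass either threshold between the sexes on CD. Foxf1 (ENSMUSG00000042812, chr8:121084386-121088144) ranged from 2.43 to 5.73 TPM in CD females and from 5.64 to 7.21 TPM in CD males, which overlap by 1 female. Its log2 difference was -0.33 (SE 0.14, edgeR p = 0.0340, adjusted p = 0.280, exact permutation test p = 0.00649). Ptch1 (ENSMUSG00000021466, chr13:63508328-63573598) ranged from 7.73 to 9.91 TPM in CD females and from 9.72 to 12.2 TPM in CD males, with a log2 difference of -0.23 (SE 0.11, edgeR p = 0.0482, adjusted p = 0.333, exact permutation test p = 0.0649). Both had an unadjusted p under 0.05, as 14.8% of all genes did, but a log2 difference under 0.4. Gli1 (ENSMUSG00000025407, chr10:127329889-127341589), whose transcription is the usual readout of pathway activity, had a log2 difference of -0.39 with a wide 95% interval of -0.88 to 0.11 (edgeR adjusted p = 0.486). The study, which used DESeq2, names Gli1 among its genes that differed between the sexes on CD, unlike the result here. DESeq2 was among the alternatives tried here, and it did not change the number of the 8 genes past the first threshold in this comparison. The reason for the difference from the study was not tested further. Without replicate 1 of the CD males Gli1 passed the first threshold at -0.52 (edgeR adjusted p = 0.216), and with the mean of the smooth muscle genes as a covariate its sign turned (0.42, adjusted p = 0.451). Hhip (ENSMUSG00000064325, chr8:79966115-80058006), which binds and sequesters the ligands, differed by -0.10 (95% interval -0.39 to 0.19). With the smooth muscle covariate Hhip was at -0.44 (SE 0.18, edgeR adjusted p = 0.186) and passed the first threshold. Smo (ENSMUSG00000001761, chr6:29735503-29761365) differed by -0.06 (95% interval -0.25 to 0.13). Ihh had the only positive value, 0.28 (95% interval -0.04 to 0.60, edgeR adjusted p = 0.430).

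Genes of muscle and stroma moved with Gli2 and Gli3. In bulk tissue, fewer cells of a type and less RNA per cell cannot be told apart. Of 10 smooth muscle genes, among them Acta2, Actg2 and Myh11, 10 were lower in CD females at the study's threshold and 6 at the adjusted one, with a median log2 difference of -0.64. Their mean log2 CPM ranged from 8.41 to 9.11 in CD females and from 8.88 to 9.70 in CD males. Of 10 fibroblast genes, 5 were lower at the first threshold and 3 at the second, and their mean log2 CPM was 6.71 to 7.22 in CD females and 7.12 to 7.54 in CD males. Of 6 B cell genes, 3 were higher in CD females at the first threshold, with a mean log2 CPM of 1.59 to 3.88 against -1.09 to 3.35. Of 10 colonic epithelium genes, 2 were lower at the first threshold and 0 at the second. Of 8 enteric glia and neuron genes, 1 was lower at the first threshold and 0 at the second. Of 4 endothelial genes, 1 was lower at each threshold, and 0 of 4 tested adipocyte genes passed. With the smooth muscle mean as a covariate, the log2 difference of Gli2 was -0.41 (edgeR adjusted p = 0.402) and that of Gli3 -0.37 (adjusted p = 0.226), and neither passed a threshold. With the B cell mean, a covariate added after the data were seen, Gli2 was at -0.67 (adjusted p = 0.331) and Gli3 at -0.41 (adjusted p = 0.305), so that both passed the first threshold alone. With limma on log2(TPM + 0.1) the adjusted p was 0.0738 for Gli2 and 0.0548 for Gli3. The part of cell composition in these differences was not tested beyond these values.

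**Figure D2:**
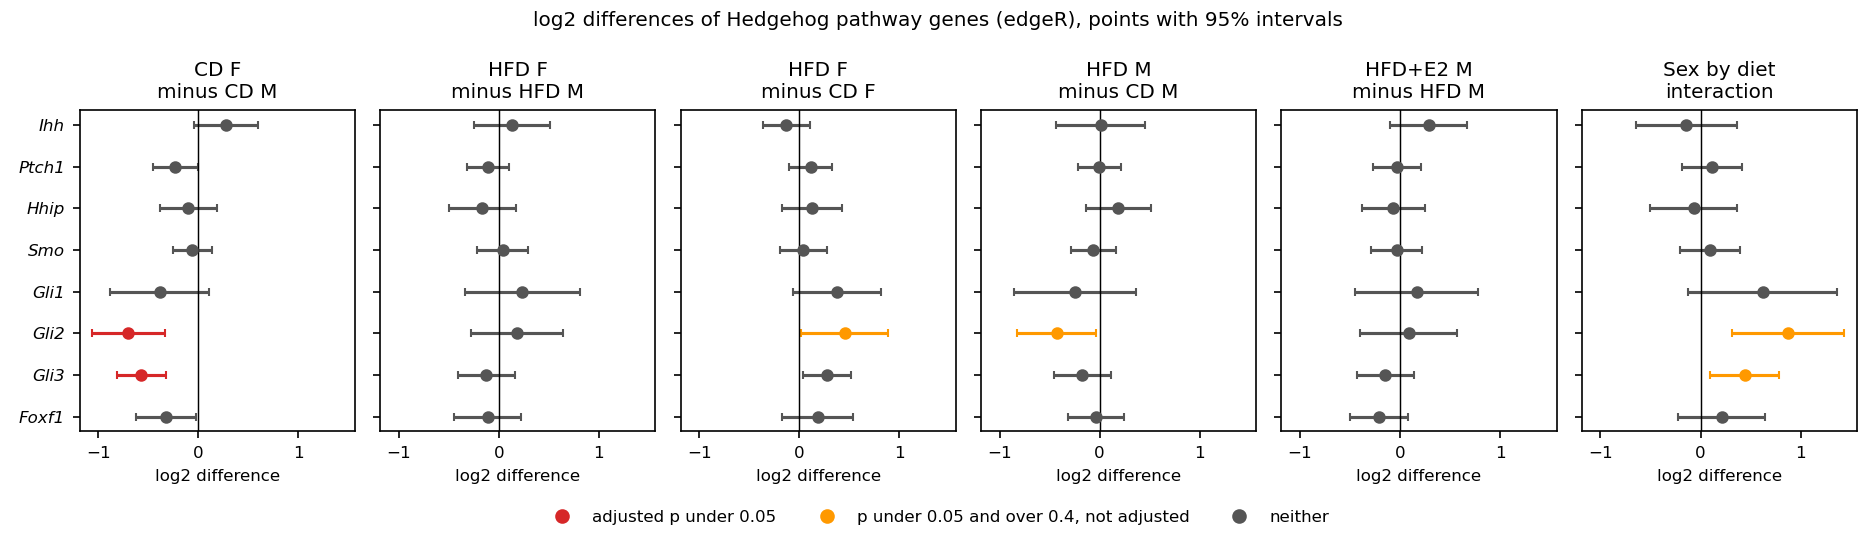
log2 differences of the 8 tested genes (rows) in each comparison (panels), with 95% intervals from edgeR. Red points passed the adjusted threshold, orange points only the unadjusted one, grey points neither. Gli2 and Gli3 are red between the sexes on CD, at -0.70 and -0.57, and orange for the interaction of sex and diet, at 0.88 and 0.44.

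Further genes of the pathway were read from 4 lists. Of 13 genes for ligand release, uptake and co-receptors, 9 were tested between the sexes on CD and 2 were lower in females, with 0 higher (median log2 difference -0.16, against 0.01 for all genes). They were Gas1, a co-receptor that helps Ptch1 bind the ligand, and Scube2, which helps to release the ligand and is named because the count is small. Gas1 averaged 4.97 ± 0.9997 TPM in CD females and 10.5 ± 1.49 TPM in CD males (SD, n = 6), with a log2 difference of -0.98 (SE 0.13, edgeR adjusted p = 0.000595). Scube2 differed by -0.71 (adjusted p = 0.0531). Of 16 genes of the signal relay and the primary cilium, 2 were lower at the first threshold and 0 at the adjusted one (median -0.09). The lowest p of that list was that of Gpr161, a ciliary receptor that restrains the pathway, at a log2 difference of -0.53 (edgeR adjusted p = 0.0830). The other past the first threshold was Evc2, at -0.43 (adjusted p = 0.267), named for the small number.

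Of 12 genes that respond to Hedgehog in the gut stroma, 10 were tested between the sexes on CD. In CD females 5 were lower at the first threshold and 1 at the adjusted one, 5 passed neither and 0 were higher (median -0.44). Bmp2 had the only positive value, 0.18 (edgeR adjusted p = 0.661), and was named after its value was seen. The 1 was Myocd, a coactivator of smooth muscle genes, with 5.91 ± 1.84 TPM in CD females and 9.19 ± 3.32 TPM in CD males (SD, n = 6) and a log2 difference of -0.72 (SE 0.16, edgeR adjusted p = 0.0227). The other 4, named after their values were seen, were Foxf2 (-0.53), Bmp4 (-0.52), Bmp7 (-0.81) and Osr1 (-0.76). Of 8 general Gli targets, 4 were lower at the first threshold and 2 at the adjusted one (median -0.40). The D cyclin genes Ccnd1 and Ccnd2, which drive cell cycle entry, passed the adjusted one with log2 differences of -0.43 (SE 0.11, edgeR adjusted p = 0.0484) and -0.37 (SE 0.07, adjusted p = 0.00987). Ccnd2 fell short of the fold of the first threshold, which Igfbp6 (-0.60), Sfrp1 (-0.46) and Rab34 (-0.65), named for their small number, passed. In HFD females against HFD males, 0 genes of the 4 lists passed either threshold.

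On the high fat diet, 0 of the 8 genes differed between females and males at either threshold, and 0 had an unadjusted p under 0.05 in edgeR. Over all 15179 genes, 3.09% passed the first threshold, 0.0988% the adjusted one and 5.09% had an unadjusted p under 0.05. With DESeq2 the numbers of the 8 genes past either threshold were 0 as well. Gli3 ranged from 1.34 to 3.85 TPM (median 2.04) in HFD females and from 1.55 to 4.62 TPM (median 3.09) in HFD males, and its log2 difference was -0.13 (95% interval -0.41 to 0.16). Gli2 ranged from 0.605 to 1.21 TPM (median 0.912) in HFD females and from 0.558 to 0.976 TPM (median 0.854) in HFD males, with a log2 difference of 0.18 (95% interval -0.28 to 0.64). Without the 6 libraries with squamous epithelium RNA these differences were -0.24 for Gli2 (SE 0.34) and -0.27 for Gli3 (SE 0.24), so that the sign of Gli2 changed. That fit lacks 4 of the 6 HFD females and 2 of the 6 HFD males, and both SE exceed or come near the values.

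The diet comparisons asked which genes respond to HFD in each sex. In females, 1 of the 8 genes was called at the first threshold, Gli2, which was higher on HFD, and 0 at the adjusted one. The share of all genes was 3.67% at the first threshold (2.95% higher on HFD) and 0.0199% at the second. The log2 difference of Gli2 was 0.45 (SE 0.21, edgeR p = 0.0418, adjusted p = 0.861, exact permutation test p = 0.0801). That of Gli3 was 0.27 (SE 0.11, edgeR p = 0.0284, adjusted p = 0.759, exact permutation test p = 0.0216), under the fold of the first threshold. The HFD females of Gli2 fell apart, with replicates 3, 4 and 5 at 1.13 to 1.21 TPM and replicates 1, 2 and 6 at 0.605 to 0.690 TPM. Replicates 3, 4 and 5 are 3 of the 4 squamous-rich libraries of that group. Leaving out the squamous-rich libraries removed 4 of the 6 HFD females. The log2 difference of Gli2 was then 0.09 (SE 0.25) and that of Gli3 0.04 (SE 0.16), and neither passed. Fewer mice alone can cost a call, and the part of the squamous-rich libraries in the result was not tested further. The call of Gli2 was lost without replicate 2, 3, 4 or 5 of the CD females or 3, 4 or 5 of the HFD females. Without replicate 4 of the CD females, Gli1 passed in its place with 0.48 (edgeR adjusted p = 0.676). The smooth muscle mean was 8.57 to 9.42 in HFD females against 8.41 to 9.11 in CD females, and 4 of 10 fibroblast genes were higher on HFD at the first threshold. Of the 4 pathway lists, Gas1 (0.44), Gpr161 (0.43) and Bmp7 (0.69) were higher on HFD at the first threshold, and 0 passed the adjusted one.

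In males, 1 of the 8 genes was called at the first threshold, again Gli2, which was lower on HFD, and 0 at the adjusted one. The share of all genes was 2.9% at the first threshold (1.64% lower on HFD) and 0% at the second. Gli2 ranged from 0.558 to 0.976 TPM in HFD males against 0.782 to 1.32 TPM in CD males. Its log2 difference was -0.43 (SE 0.19, edgeR p = 0.0357, adjusted p = 0.823, exact permutation test p = 0.0368). Without the squamous-rich libraries it was -0.39 (edgeR adjusted p = 0.897), and it missed the threshold then and without replicate 2, 3, 4 or 5 of the CD males or 1, 2, 3 or 4 of the HFD males. Gli3 differed by -0.17 (95% interval -0.45 to 0.11). Ptch1, Smo, Foxf1 and Ihh lay within 0.07 of 0 on the log2 scale, with 95% intervals that reached at most 0.45 to either side. Of the general Gli targets, Ccnd1 (-0.41), Ccnd2 (-0.57) and Rab34 (-0.40) were lower on HFD at the first threshold and 0 at the adjusted one (edgeR adjusted p of 0.490, 0.233 and 0.807). So was Tcf21 (-0.57) of the gut stromal list, and the 2 other lists held 0. Rab34 and Tcf21 were named for their small number.

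The interaction of sex and diet compares the response to HFD in females with that in males. The response was more positive in females for Gli2, by 0.88 on the log2 scale (SE 0.27, 95% interval 0.31 to 1.44, edgeR adjusted p = 0.581), and for Gli3, by 0.44 (SE 0.17, 95% interval 0.10 to 0.78, adjusted p = 0.655). Both passed the first threshold and neither the adjusted one. Over all 15800 genes, 5.18% passed the first (3.71% with a more positive response in females) and 0% the second, with edgeR. An unadjusted p under 0.05 was found for 1066 genes in edgeR, and DESeq2 called 7 genes at the adjusted threshold. Gli1 had a value of 0.62 (SE 0.36, edgeR adjusted p = 0.743). It passed the first threshold when CD male replicate 1 was left out (0.74) and when HFD male replicate 5 was (0.79). Ptch1 (0.12), Hhip (-0.07), Smo (0.10), Foxf1 (0.21) and Ihh (-0.14) did not pass. The value of Gli3 fell under 0.4 when CD male replicate 3 was left out (0.35) and when HFD male replicate 5 was (0.38). Without the squamous-rich libraries, which are 4 of the 6 HFD females and 2 of the 6 HFD males, neither passed. Gli2 was then at 0.47 (SE 0.34) and Gli3 at 0.30 (SE 0.22). Of the 10 smooth muscle genes, 3 passed the first threshold in the same direction, with a median of 0.54. With their mean as a covariate, Gli2 was at 0.54 (SE 0.27) and Gli3 at 0.32 (SE 0.17), and neither passed. Of the pathway lists, 2 of 10 co-receptor, 1 of 16 relay, 3 of 11 gut stromal and 3 of 8 general target genes passed the first threshold, each with a more positive response in females, and 0 the adjusted one. Gas1 was among them, at 0.59. The comparison shares its 24 libraries with the sex and diet comparisons above.

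E2 in HFD males left the 8 genes without a call. At the first threshold 0 of 8 passed, against 5.87% of all 15010 genes, at the adjusted one 0 of 8, against 0.00666%, and 0 of 8 had an unadjusted p under 0.05 in edgeR, against 10.2%. Ihh had the largest value, 0.29 (SE 0.18, 95% interval -0.10 to 0.67, edgeR adjusted p = 0.550, exact permutation test p = 0.147). Without the 2 squamous-rich libraries of the HFD males, which held 16.6 and 19.1 CPM of Ihh, the difference of Ihh was 0.15 (SE 0.20, edgeR adjusted p = 0.890), and that of the other 7 genes lay between -0.14 (Foxf1) and 0.18 (Gli1). Replicate 6 of the HFD males had the highest Ihh of all mice in TPM, 20.4. In CPM it had 33.1, under the 33.5 of replicate 4 of the HFD+E2 males. Without replicate 6 of the HFD males, Ihh was 0.44 higher with E2 on the log2 scale (edgeR adjusted p = 0.367), which passed the first threshold. Foxf1 ranged from 3.92 to 5.72 TPM (median 5.19) with E2 and from 5.32 to 7.91 TPM (median 6.07) without, and differed by -0.21 (95% interval -0.50 to 0.08). Gli1 (0.16), Gli2 (0.09), Gli3 (-0.15), Hhip (-0.07), Ptch1 (-0.03) and Smo (-0.03) had intervals that include 0. Of the other pathway genes, Scube1 (0.52) and Tcf21 (0.60) were higher with E2 at the first threshold and 0 at the adjusted one. They were named for their small number. Spop, a ubiquitin ligase adaptor that acts on Gli proteins, had the lowest p of the relay list after Gpr161 over the 5 comparisons of 2 groups, with a log2 difference of 0.26 (edgeR adjusted p = 0.461).

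The level of each stromal gene was also set against that of Ihh within each mouse, as log2 of the TPM ratio. On average, the stromal genes lay lower against the ligand in CD females than in CD males. The mean for Ptch1 was -0.71 ± 0.27 in CD females and -0.21 ± 0.37 in CD males (SD, n = 6). For Foxf1 it was -1.62 ± 0.21 and -0.97 ± 0.26, and for Gli1 -4.30 ± 0.58 and -3.61 ± 0.70. For Gli3 it was -2.85 ± 0.29 and -1.72 ± 0.60, and for Gli2 -4.71 ± 0.38 and -3.58 ± 0.40. For these 5 genes the means of the 3 other groups lay between those of the CD groups. For Hhip the means were -1.58 ± 0.27 in CD females and -1.13 ± 0.45 in CD males, and that of HFD males, -1.09 ± 0.53, lay above both. Between CD females and CD males the ranges overlapped for Ptch1 (-0.95 to -0.22 against -0.68 to 0.18), Gli1, Hhip and Gli3, but not for Foxf1 and Gli2. Each ratio also holds the difference of Ihh itself, which was 0.28 on the log2 scale and not called. The values are a description, with no test.

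Across the 30 mice, no relation of Ihh to the stromal targets was found in log2 CPM. Between log2 CPM of Ihh and Ptch1, Pearson's r was 0.02 (permutation p = 0.910) and Spearman's rho -0.01 (p = 0.967). For Gli1 they were 0.21 (permutation p = 0.261) and 0.11 (p = 0.563), for Hhip -0.10 (p = 0.600) and -0.10 (p = 0.602), and for Foxf1 0.11 (p = 0.577) and 0.02 (p = 0.907). After adjustment over the 36 correlations computed, the smallest p of these 4 values of r was 0.499. Without the 2 mice farthest from the median of Ihh, r was -0.06 for Ptch1, -0.12 for Gli1, 0.14 for Hhip and 0.09 for Foxf1. On deviations from the group means, r was 0.20, 0.27, -0.05 and 0.41 in the same order, and for Foxf1 the permutation p of 0.0194 became 0.0998 after adjustment. Nor was one found with the mean of the colonic epithelium genes, with r = 0.00 (rho = 0.04, permutation p = 0.998 and 0.837). On log2(TPM + 0.1), r of Ihh was 0.24 with Ptch1, -0.07 with Gli1, 0.27 with Hhip and 0.30 with Foxf1. The signs for Gli1 and Hhip thus depended on the scale, and no p was computed for these values.

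**Figure D3:**
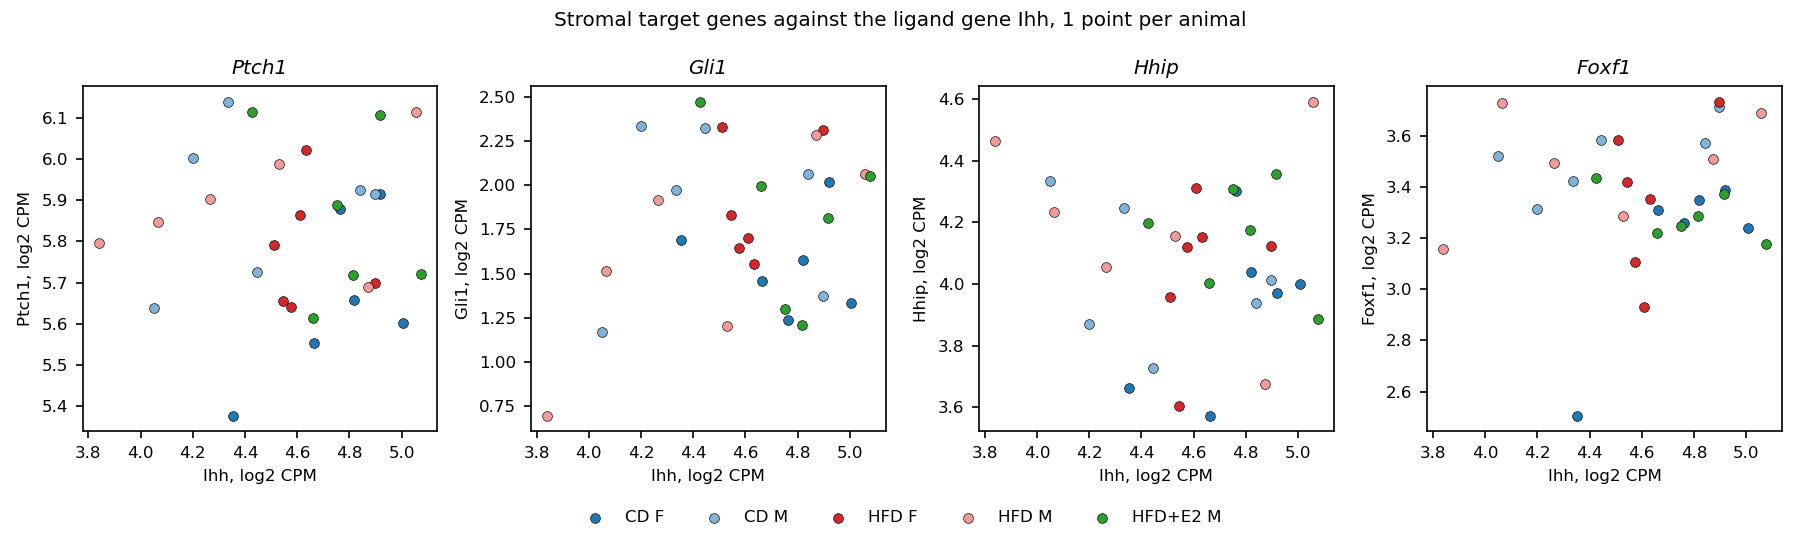
log2 CPM of Ptch1, Gli1, Hhip and Foxf1 (vertical axes) against that of Ihh (horizontal axes), 1 point per mouse and 1 colour per group. The points form no line, with Pearson's r of 0.02, 0.21, -0.10 and 0.11 over the 30 mice.

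The Gli genes moved with the smooth muscle genes. For Gli1, r was 0.62 (permutation p = 0.00036, adjusted p = 0.00732) and rho 0.62 (p = 0.00044, adjusted p = 0.00936), for Gli3 r was 0.59 (p = 0.00055, adjusted p = 0.00732) and rho 0.58 (p = 0.00099, adjusted p = 0.0102), and for Gli2 r was 0.55 (p = 0.0015, adjusted p = 0.00906) and rho 0.61 (p = 0.00052, adjusted p = 0.00936). Without the 2 mice with the most extreme smooth muscle means, r was 0.59, 0.60 and 0.64 in the same order. Within groups, on deviations from the group means, Gli1 held (r = 0.67, permutation p = 0.00042, adjusted p = 0.00756), whereas Gli3 (r = 0.38, adjusted p = 0.212) and Gli2 (r = 0.43, adjusted p = 0.129) did not pass. Hhip went the other way, with r of -0.30 over all mice (permutation p = 0.112, adjusted p = 0.335) and -0.57 within groups (p = 0.00251, adjusted p = 0.0301), and rho of -0.32 (p = 0.0889, adjusted p = 0.259). With the fibroblast genes, Gli1 (r = 0.58, adjusted p = 0.00732) and Gli3 (r = 0.55, adjusted p = 0.00906) passed by both r and rho. Gli2 passed by rho (0.49, adjusted p = 0.0430) but not by r (0.44, adjusted p = 0.0728). Smo (r = 0.55, adjusted p = 0.00906) and Foxf1 (r = 0.49, adjusted p = 0.0308) passed by r but not by rho (adjusted p of 0.185 and 0.198). Without the 2 mice farthest from the median of the fibroblast genes, r was 0.35 for Smo and 0.24 for Foxf1. Within groups, r with the fibroblast genes was 0.67 for Smo (adjusted p = 0.00756), 0.53 for Gli1 (adjusted p = 0.0393), 0.45 for Foxf1 (adjusted p = 0.130), 0.39 for Gli3 (adjusted p = 0.207) and 0.20 for Gli2 (adjusted p = 0.562). With the genes of stratified squamous epithelium, Gli3 passed within groups (r = 0.56, permutation p = 0.00585, adjusted p = 0.0421). Over all mice it did not, by r (0.31, adjusted p = 0.313) or by rho (0.16, adjusted p = 0.579). These values share library and depth, and the part of cell composition in them was not tested.

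**Figure D4:**
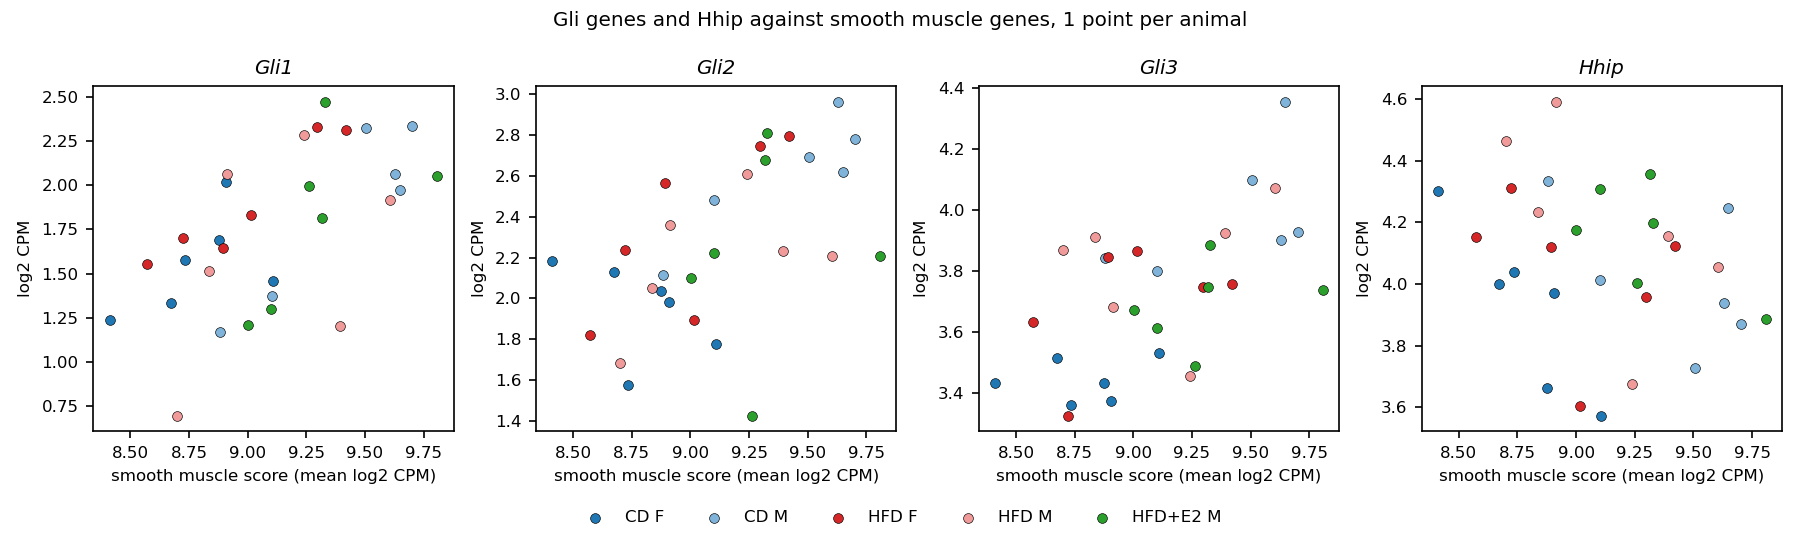
log2 CPM of Gli1, Gli2, Gli3 and Hhip (vertical axes) against the mean log2 CPM of 10 smooth muscle genes (horizontal axes), 1 point per mouse and 1 colour per group. The 3 Gli genes rise to the right, with Pearson's r of 0.62, 0.55 and 0.59, and CD females (dark blue) lie to the left. Hhip falls to the right, with r = -0.30.

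Outside the 9 genes, the patterns most like those of Ihh and Gli1 were sought among all others. Among 15446 genes with a mean of at least 1 TPM, the highest Pearson correlations of log2 CPM with Ihh over the 30 libraries were those of Rita1 (0.87), Fam109a (0.85), Atg4d (0.85), Sun2 (0.85) and Sema3b (0.84). For Gli1 they were Cyb5r3 (0.84), Rps6ka4 (0.82), Drap1 (0.82), Tubb6 (0.81) and Lmf2 (0.81). Some annotated genes overlap the 9 genes. Arhgap9 overlaps Gli1 on the opposite strand and had 5 to 46 counts per library, against 19 to 65 for Gli1, and whether the counting used strand was not stated. Gm13717 lies within Smo on the same strand, with 1 to 10 counts against at least 177 for Smo.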

How the data were processed

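RNA from the colon of 30 mice was sequenced after removal of ribosomal RNA (TruSeq Stranded Total RNA with Ribo-Zero, paired ends, NovaSeq6000). Per the labels, the authors used bcl2fastq 2.19.1.403, Trim Galore, STAR on GRCm38, featureCounts and StringTie. The deposited counts are whole numbers per gene without normalization. The authors' TPM, scaled to gene length and library, were used for levels, and genes listed more than once were summed. The deposited FPKM and coverage columns were not used. The strand setting of the counting and the release of the annotation are not given in the sources used here.

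Each comparison was fitted to the counts of its 12 libraries (interaction, 24) with edgeR 4.0.16 in R 4.3.3 (filterByExpr, TMM, robust quasi-likelihood F-test). SE follow from the F statistic. log2 CPM used a prior count of 2. Single genes were also compared by exact permutation tests, correlations by 100000 permutations. A marker mean covers the genes of a list with over 0.1 CPM on average. P-values treat the mice of a group as replicates. The tests were tried on simulated counts.

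The 9 genes and all lists were chosen with earlier results of these data known. From each list the text names the genes past the adjusted threshold in any of the 5 comparisons of 2 groups, or, for a list with none, the 2 with the lowest p in any of them (Gpr161 and Spop), and for Ihh, Shh and Gli1 the 5 genes with the most similar pattern, which could not be computed for Shh. Small counts outside this rule are named where they stand. Alternatives were DESeq2 1.42.0, its size factors, no filter, all 30 libraries in 1 fit, the replicate number as a block, marker means as covariates, limma 3.58.1 on log2 of TPM with 0.1 or 1 added, and each library left out. Chosen after seeing the data were leaving out the 6 libraries whose squamous mean was above 2 and the B cell mean as a covariate. Figures were drawn with matplotlib 3.10.9.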

Additional observations from a re-analysis of the deposited data

Results flagged for a closer look

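In 40 sets of 6 mice (8 genes in 5 groups), 3 held 1 mouse that stood apart from the others by Dixon's test, where chance alone gives about 1 in 20. On the log2 CPM scale, Ihh was at 4.90 in replicate 5 of the HFD females, against 4.51 to 4.63 in the others. Smo was at 4.37 in replicate 6 of the CD males, against 4.49 to 4.53. Foxf1 was at 2.51 in replicate 5 of the CD females, against 3.24 to 3.39.

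The response to HFD differed between females and males at the unadjusted threshold for Gli2, by 0.88 on the log2 scale, and for Gli3, by 0.44, and for neither after adjustment over all genes (edgeR adjusted p = 0.581 and 0.655).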

How the results depend on the processing

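Of 1252 single values recalculated under the alternatives, 1200 kept their side of the unadjusted threshold or stayed close, 39 lost the call, all of Gli2 or Gli3, 8 gained one, 5 correlations with Ihh moved by over 0.2 and 0 called values changed sign. A sign change with no call on either side was found for 65. Between the sexes on CD, the number of the 8 genes past the unadjusted threshold was 2, and 1 with the smooth muscle mean as a covariate, which was Hhip (-0.44) and neither Gli2 nor Gli3. The number past the adjusted one was 2, and it was 1 with all 30 libraries in 1 fit or with the colonic epithelium or squamous mean as a covariate. It was 0 with the smooth muscle or B cell mean or with limma on either TPM scale. For HFD in females, the number past the unadjusted threshold was 1, and 0 with the smooth muscle, colonic epithelium or squamous mean, with limma on log2(TPM + 1) and without the squamous-rich libraries. For HFD in males it was 1, and 0 with any of the 4 means as a covariate, with limma on either TPM scale and without the squamous-rich libraries. For the interaction it was 2, 1 with the squamous or B cell mean and with limma on either TPM scale, and 0 with the smooth muscle mean and without the squamous-rich libraries. Over all genes, the number past the adjusted threshold between the sexes on CD was 435 and lay between 40 (B cell mean) and 941 (replicate block), with 776 in DESeq2, and that past the unadjusted one was 1366 and lay between 869 (B cell mean) and 2253 (no filter). The adjusted numbers were 15 (8 to 50) between the sexes on HFD, 3 (1 to 215) for HFD in females, 0 (0 to 26) for HFD in males, 1 (0 to 38) for E2 and 0 (0 to 7) for the interaction, each highest in DESeq2. The unadjusted ones were 469 (337 to 1165), 553 (353 to 1496), 434 (325 to 1056), 881 (502 to 1856) and 818 (332 to 1543) in the same order. On log2(TPM + 0.1) the median of all genes lay at -0.10 between the sexes on CD, with 379 higher and 1702 lower against 439 and 927 in edgeR, and at -0.16 for E2, with 248 and 1608 against 395 and 486. Beyond those whose construction is a smaller set of libraries, the cause was not tested. Without 1 library, the numbers past the unadjusted threshold ranged from 2 to 3 between the sexes on CD, from 0 to 1 for HFD in each sex and for E2, and from 1 to 3 for the interaction, and that past the adjusted one from 1 to 2 between the sexes on CD. The replicate numbers of the labels were tried as a block. Deviations of libraries with the same number correlated from -0.25 to 0.51 over 30 pairs, over 0.1 in 20, and 13 of 30 correlated best with their own number. The share that chance alone would give was not computed. What the numbers stand for is not stated in the labels, and whether they mark a shared batch was not tested. The main fits therefore hold no block, and these values do not exclude one. With the replicate block, 2 genes passed either threshold between the sexes on CD and 3 the unadjusted one for the interaction, where Gli1 was added (0.65). With the replicate block no other number changed. Gli1 and Gli2, with 19 to 65 and 25 to 108 counts per library, are the genes whose values depth limits most.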
